A study of Mus musculus with 18 samples.

Results

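Named genes that keep blood progenitors and leukaemia cells immature (10 of the 23899 genes in the deposited expression table) were followed over every library of the series. They are Myc, Myb, Lmo2, Runx1, Bmi1, Lyl1, Erg, Ikzf1, Zeb2 and Cdk6, and this list of names is the rule that set them. All 10 were in the table and all 10 passed the filter on low values, which asked for 1 FPKM on average. Most of them are sequence-specific transcription factors. Lmo2 is an adaptor protein without DNA contact of its own, Bmi1 a Polycomb protein and Cdk6 a kinase, so the name transcription factor covers only some of the 10.

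All cells were grown from primary leukaemia of the mouse, driven by the fusion gene MLL-AF9. They carried Cas9 and grew in medium with interleukin 3 (10 ng/ml). Their poly(A) RNA was sequenced in bulk in 6 groups of 3 libraries. In 4 groups the cells carried a guide RNA against Jmjd1c (e12.3, e12.4, e20.1 or e21.1), in the fifth a guide against Renilla luciferase, a gene that mouse cells do not have, and the last group is labelled mock. All 6 groups share MLL-AF9 and Cas9, so none represents normal progenitors. The series names the jumonji and zinc finger domains as targets, but the sources used here do not say which guide cuts which domain, what the mock cells received, or whether the 3 replicates of a group were separate cultures. The p-values below therefore measure the spread between these libraries, which may be technical.

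In normal marrow, progenitors divide while they are still immature and lose that state as they mature into blood cells. LMO2, LYL1, RUNX1 and ERG are known to sit together on enhancers of stem and progenitor cells. MYC drives growth and ribosome production, and MYB keeps immature cells dividing. In leukaemia with an MLL fusion, MYC, MYB and CDK6 are known dependencies.

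Values are FPKM, the sequenced fragments of a gene per kilobase of transcript and per unit of library size, which scales a level by transcript length and by library depth. Differences were tested on log2(FPKM + 1) with limma over the 11550 genes that passed the filter, and a gene counts as called where its Benjamini-Hochberg adjusted p over all of them is under 0.05. A log2 difference on this scale understates the ratio of FPKM, little at the levels of the 10 genes and strongly for genes of few FPKM. Estimated depth ran from 20.6 to 183 M reads (median 31.8), and for Lyl1, which has 1 annotated transcript, the library with the fewest reads, e20.1 replicate 1, held about 2964 of them.

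Promoter sequence is shown for the 2 genes that passed the test over all 4 guides, Runx1 and Lyl1, and for 2 others whose start regions hold the CACGTG word, the E-box that MYC with MAX prefers. The stretches are RefSeq sequence (GRCm38.p6) upstream of a start and stop where an exon of GENCODE vM21 begins. Bases are in lower case, and capitals mark CACGTG, the core that RUNX proteins bind (TGTGGT) or the core that MYB proteins bind (AACNG). Runx1 has a distal and a proximal promoter, both on the minus strand of chromosome 16, and the gene-level FPKM does not tell their transcripts apart.
Runx1 distal, chr16:92826150-92826324: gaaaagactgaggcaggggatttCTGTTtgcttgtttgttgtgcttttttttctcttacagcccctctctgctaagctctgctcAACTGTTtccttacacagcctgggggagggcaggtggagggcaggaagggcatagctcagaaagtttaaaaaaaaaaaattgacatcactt
Runx1 proximal, chr16:92697330-92697579: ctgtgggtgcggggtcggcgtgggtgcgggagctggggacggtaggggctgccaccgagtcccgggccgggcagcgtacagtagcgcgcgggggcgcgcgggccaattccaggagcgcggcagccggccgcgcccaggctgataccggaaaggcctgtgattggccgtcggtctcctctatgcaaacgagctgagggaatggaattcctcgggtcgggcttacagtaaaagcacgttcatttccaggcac
Lyl1, chr8:84701207-84701456, plus strand: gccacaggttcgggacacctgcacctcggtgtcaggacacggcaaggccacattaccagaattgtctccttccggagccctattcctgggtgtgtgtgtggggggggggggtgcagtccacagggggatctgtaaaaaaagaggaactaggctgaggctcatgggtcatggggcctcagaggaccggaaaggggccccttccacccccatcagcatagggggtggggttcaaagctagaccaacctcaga
Bmi1, chr2:18676768-18677017, plus strand: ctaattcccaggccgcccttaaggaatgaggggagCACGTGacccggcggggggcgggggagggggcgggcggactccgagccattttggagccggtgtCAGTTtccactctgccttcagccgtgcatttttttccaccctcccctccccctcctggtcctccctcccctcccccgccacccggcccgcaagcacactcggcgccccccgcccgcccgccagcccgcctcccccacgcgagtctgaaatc
Cdk6, chr5:3343643-3343731, plus strand: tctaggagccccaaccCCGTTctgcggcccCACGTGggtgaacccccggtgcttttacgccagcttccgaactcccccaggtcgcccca

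The distal Runx1 stretch held 3 AACNG matches, of which 2 overlap, and the proximal Runx1 and the Lyl1 stretches held no match to any of the 3 words. Bmi1 and Cdk6 each held 1 CACGTG and 1 AACNG match. Over whole windows of 250 bases, 8 of the 10 genes had 15 RefSeq start windows. Both strands were searched for each word, and none of the words contains another. CACGTG was in 3 of these 15 windows (Bmi1, Cdk6 and, outside the stretch shown, the distal Runx1 window), against 6.02% of 32851 RefSeq promoter windows of the same length. AACNG was in 11 of 15 against 74.2%, TGTGGT in 0 of 15 against 14.0%, and GGAA, the core of ETS sites such as those of ERG, in 13 of 15 against 93.4%. A match describes letters in a window and is not a bound site.

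Jmjd1c, the targeted gene (chromosome 10), stood at 64.2, 85.4 and 85.4 FPKM with the Renilla guide and at 71.8, 77.1 and 74.5 FPKM in mock. The guide libraries read 66.6, 58.8 and 56.2 (e12.3), 59.7, 74.4 and 70.9 (e12.4), 63.4, 42.2 and 73.6 (e20.1) and 62.4, 73.2 and 68.0 (e21.1). Each of the 12 lay below the mean of either control group, but 6 lay inside the Renilla range. The lowest, e20.1 replicate 2, was at -0.68 on the log2 scale against the others of its group. Long transcripts stood low in that library (see Runx1 below), and the longest annotated Jmjd1c transcript has 8609 bases. The part of transcript length in the Jmjd1c levels was not tested. The log2 difference of the 4 guides from Renilla was -0.29 (SE 0.13, adjusted p = 0.19, limma), which missed the threshold over all genes, and from mock it was -0.23 (adjusted p = 0.35). The exact two-sided permutation p of the 12 libraries was 0.0308 against the 3 of Renilla and 0.0308 against the 3 of mock. This test and the exact tests below took the 12 libraries as if they were replicates of 1 condition, whichever guide they carried.

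**Figure D1:**
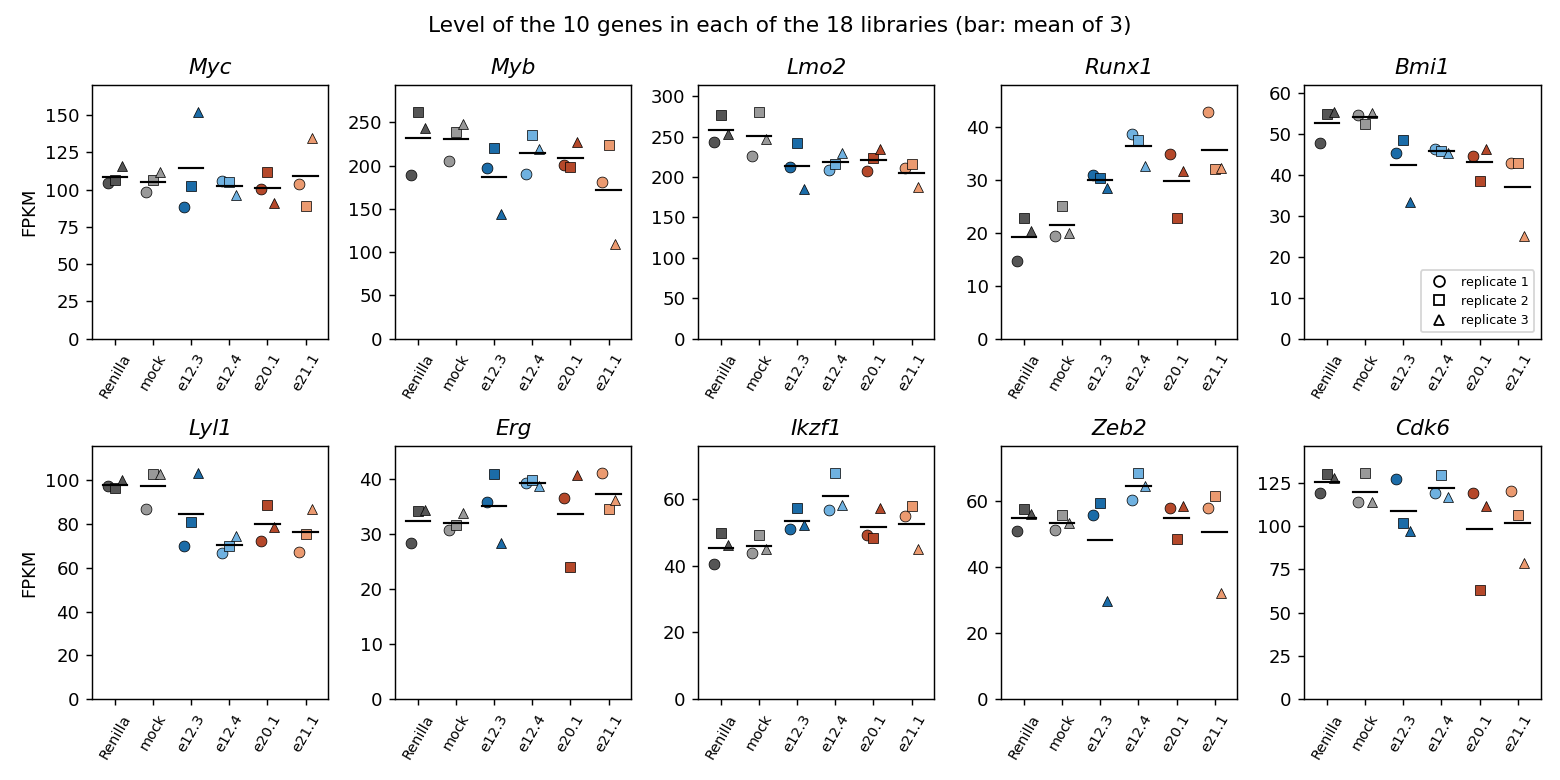
Level of each of the 10 genes in FPKM (vertical axes from 0) in the 3 libraries of each of 6 groups, with a marker per replicate and a bar at the group mean. Runx1 is the gene whose guide libraries rise furthest over the controls, and the third libraries of e12.3 and e21.1 lie far below the others of their groups for Zeb2, Myb and Bmi1 and above them for Myc.

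With the 4 guides pooled against Renilla, 2 of the 10 genes passed the test, Runx1 higher and Lyl1 lower. Over all genes tested, 11.0% passed in either direction, 7.77% higher and 3.21% lower, so the count among the 10 is not read as a result about them. The median log2 difference was -0.15 over the 10 genes and -0.03 over all genes tested, and 3 of the 10 lay above 0. At an unadjusted p under 0.05 there were 5 of the 10, against 24.4% of all genes tested.

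**Figure D2:**
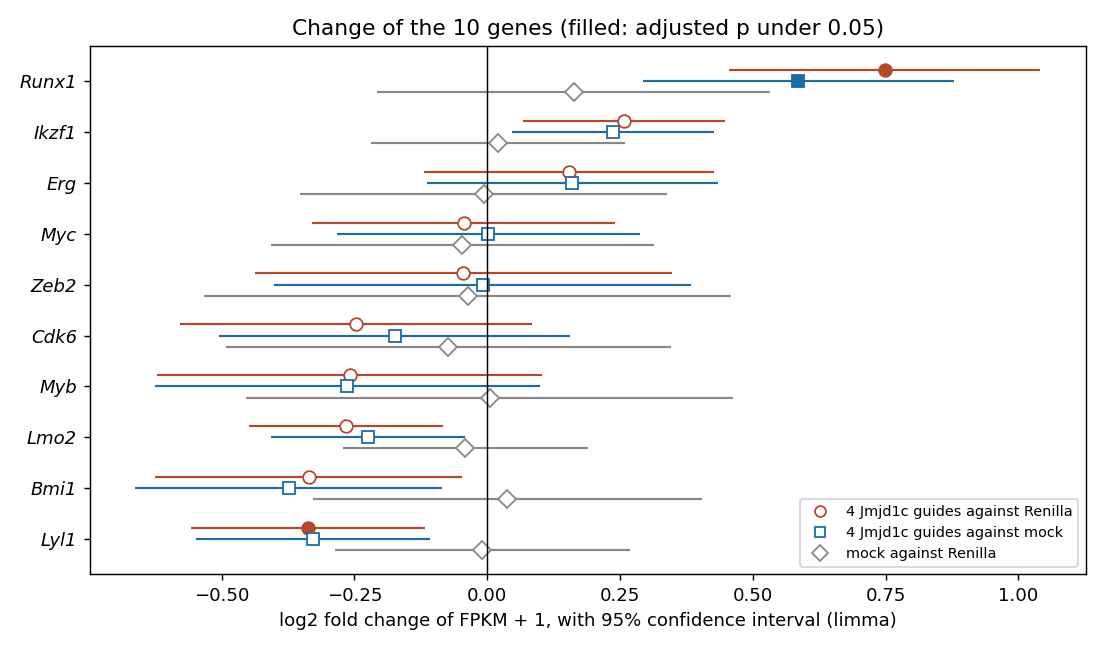
Log2 fold change of FPKM + 1 (horizontal axis) with its 95% confidence interval for the 10 genes in 3 comparisons, each marked by its own symbol, filled where the adjusted p is under 0.05. Runx1 is filled against both controls, at 0.75 against Renilla and 0.59 against mock, Lyl1 only against Renilla at -0.34, and every interval for mock against Renilla holds 0.

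Runx1 (chromosome 16, 92601466 to 92826149, minus strand) encodes the DNA-binding partner of CBFB, which sets up definitive blood formation. It stood at 14.7, 22.9 and 20.3 FPKM with the Renilla guide and 19.5, 25.1 and 19.9 FPKM in mock. With the Jmjd1c guides it stood at 30.9, 30.3 and 28.5 (e12.3), 38.7, 37.6 and 32.7 (e12.4), 34.9, 22.8 and 31.8 (e20.1) and 42.8, 32.0 and 32.2 (e21.1). In 11 of 12 guide libraries the level was above all 6 control libraries, and e20.1 replicate 2 alone fell inside the control range. The mean was 70.7% above Renilla, with a log2 difference of 0.75 (SE 0.14, 95% interval 0.46 to 1.04, adjusted p = 0.0018, limma), and 53.1% above mock, with 0.59 (SE 0.14, adjusted p = 0.012). An exact two-sided permutation test of the 12 against the 3 Renilla libraries gave p = 0.00879. The call against Renilla held without each of the 18 libraries in turn, at 0.57 to 0.88 (adjusted p at most 0.0255). The call against mock was lost without mock replicate 1 (0.52, adjusted p = 0.094) or mock replicate 3 (0.54, adjusted p = 0.093).

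Guide by guide against the same 3 Renilla libraries, Runx1 rose with e12.4 by 0.90 (adjusted p = 0.0040, limma) and with e21.1 by 0.86 (adjusted p = 0.0046). With e12.3 the log2 difference was 0.63 (adjusted p = 0.068) and with e20.1 it was 0.60 (adjusted p = 0.057), neither past the threshold. The order of the group means ran from Renilla (19.3 FPKM) through mock (21.5), e20.1 (29.8), e12.3 (29.9) and e21.1 (35.7) to e12.4 (36.3), and only the ranges of e12.3 and e21.1 did not overlap between neighbours. Even so, Runx1 had the lowest mean level of the 10 genes, 28.7 FPKM over all libraries.

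The lowest Runx1 libraries of their groups were Renilla replicate 1 and e20.1 replicate 2. Relative to its group, 92 genes with transcripts of at least 4000 bases stood at -0.54 on the log2 scale in e20.1 replicate 2 against 533 genes with transcripts under 1500 bases, the lowest of the 18 libraries. In Renilla replicate 1 the same difference was -0.15, inside the range of the other 16, which ran from -0.19 (e21.1 replicate 3) to 0.25 (e20.1 replicate 1). The part of transcript length in the Runx1 levels was not tested. The longest annotated transcript has 5861 bases for Runx1 and 1800 for Lyl1. Without Renilla replicate 1 and e20.1 replicate 2, left out after their values were seen, the 11 guide libraries of Runx1 ran from 28.5 to 42.8 FPKM and the 2 Renilla libraries were at 20.3 and 22.9. The log2 difference was then 0.62 (adjusted p = 0.0048), and the call remained.

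Lyl1 (chromosome 8, 84701457 to 84704715, plus strand) encodes a helix-loop-helix factor that pairs with E proteins and binds LMO2. It stood at 97.2, 96.2 and 100.01 FPKM with the Renilla guide, a narrow range, and at 86.8, 102.9 and 102.6 in mock. Under the Jmjd1c guides it stood at 69.8, 81.0 and 103.3 (e12.3), 66.6, 70.1 and 74.7 (e12.4), 72.3, 88.4 and 78.7 (e20.1) and 67.3, 75.2 and 86.6 (e21.1). In 11 of 12 guide libraries the level lay below all 3 Renilla libraries, while e12.3 replicate 3 was the highest of all 18. Lyl1 fell by a mean of 20.4% against Renilla, with a log2 difference of -0.34 (SE 0.10, 95% interval -0.56 to -0.12, adjusted p = 0.048, limma) and an exact two-sided permutation p = 0.0176. Against mock the log2 difference was -0.33 with an adjusted p of 0.062, which missed the threshold.

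The Lyl1 call is close to the threshold. It held without e12.3 replicate 3, without e20.1 replicate 2 and without e21.1 replicate 3, and was lost without each of the other 15 libraries, with adjusted p from 0.051 to 0.14 and log2 differences that stayed between -0.37 and -0.30 over all 18. With e12.4 alone Lyl1 fell by 0.47 on the log2 scale (adjusted p = 0.041, limma), and this call was lost without any 1 of the 6 libraries compared (adjusted p 0.079 to 0.14). Without Renilla replicate 1 and e20.1 replicate 2 together, the 4-guide difference was -0.36 and its adjusted p 0.098.

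Lmo2 (chromosome 2, 103957986 to 103981878, plus strand), the adaptor that bridges LYL1 or TAL1 to GATA factors, had the highest mean of the 10 genes at 228 FPKM. It stood at 242.8, 276.6 and 253.7 FPKM with the Renilla guide and 226.2, 280.2 and 246.7 in mock. In guide cells it stood at 212.6, 241.8 and 185.2 (e12.3), 208.1, 215.8 and 230.2 (e12.4), 206.9, 223.0 and 234.8 (e20.1) and 211.6, 216.0 and 187.7 (e21.1). It was the only 1 of the 10 with all 12 guide libraries below all 3 Renilla libraries, a separation that 2.98% of all genes tested showed in that direction, 6.26% upwards and 9.24% either way. Apart from all 6 control libraries lay 6.51% of genes tested and none of the 10. Mock replicate 1 lay inside the guide range. The mean with guides was 16.8% under that of Renilla. The exact two-sided permutation p was 0.0044, the smallest that 455 arrangements allow. In the fit over all genes the log2 difference was -0.27 (SE 0.086, adjusted p = 0.060, limma), which missed the threshold. The value passed without e12.3 replicate 2 (-0.29, adjusted p = 0.033) and when the mock libraries were added to the control (-0.25, adjusted p = 0.018). The group means of the 4 guides, 205 to 222 FPKM, had overlapping ranges.

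Erg (chromosome 16, 95359169 to 95586593, minus strand), an ETS factor of stem cells and megakaryocytes, did not pass. It stood at 28.4, 34.3 and 34.4 FPKM with the Renilla guide and 30.8, 31.7 and 33.9 in mock. The guide libraries read 36.0, 40.9 and 28.4 (e12.3), 39.4, 39.9 and 38.8 (e12.4), 36.6, 24.0 and 40.8 (e20.1) and 41.2, 34.6 and 36.2 (e21.1). In 10 of 12 guide libraries the level was above all 3 Renilla libraries, and in e12.3 replicate 3 and e20.1 replicate 2 it was below all of them. Its log2 difference was 0.15 with a 95% interval from -0.12 to 0.43 (adjusted p = 0.51, limma; exact two-sided permutation p = 0.277).

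Myb (chromosome 10, 21124935 to 21160984, minus strand) ranked next to Lmo2 among the 10 at a mean of 208 FPKM. It stood at 189.5, 262.0 and 243.8 FPKM with the Renilla guide and 205.9, 238.8 and 248.7 in mock. Jmjd1c guide libraries read 196.9, 220.9 and 144.0 (e12.3), 190.0, 235.8 and 219.8 (e12.4), 200.8, 198.1 and 227.3 (e20.1) and 181.0, 223.4 and 109.6 (e21.1). The ranges overlapped widely, and Renilla replicate 1 was the fourth lowest of the 18. The log2 difference was -0.26 with a 95% interval from -0.62 to 0.10 (adjusted p = 0.38, limma; exact two-sided permutation p = 0.132).

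Myc (chromosome 15, 61985391 to 61990374, plus strand) stood at 104.2, 106.5 and 115.5 FPKM with the Renilla guide and 98.2, 106.1 and 111.5 in mock. In cells with a Jmjd1c guide it stood at 88.0, 102.4 and 152.0 (e12.3), 105.9, 104.9 and 96.0 (e12.4), 100.1, 112.1 and 91.0 (e20.1) and 103.7, 89.2 and 134.4 (e21.1). The 2 highest values of all 18 were those of the third e12.3 and e21.1 libraries, and the other 10 guide libraries lay between 88.0 and 112. Its log2 difference was -0.04 with a 95% interval from -0.33 to 0.24 (adjusted p = 0.88, limma; exact two-sided permutation p = 0.673). Changes of Myc inside that interval remain compatible with these libraries. The interval is not a limit of detection, and somewhat larger changes could also miss the threshold.

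Ikzf1 (chromosome 11, 11685003 to 11772926, plus strand) encodes Ikaros, a zinc finger factor needed for lymphocytes that works with the NuRD complex. It stood at 40.4, 49.8 and 46.0 FPKM with the Renilla guide and 43.7, 49.2 and 45.0 in mock. Across the Jmjd1c guides it stood at 50.9, 57.2 and 52.2 (e12.3), 56.5, 67.7 and 58.1 (e12.4), 49.3, 48.2 and 57.2 (e20.1) and 54.9, 57.7 and 44.8 (e21.1). In 9 of 12 guide libraries it was above all 3 Renilla libraries, with a mean 20.2% higher. The log2 difference was 0.26 (SE 0.089, adjusted p = 0.080, limma; exact two-sided permutation p = 0.0352), short of the threshold over all genes, and it passed without e21.1 replicate 3 (0.28, adjusted p = 0.030). With e12.4 alone Ikzf1 rose by 0.41 (adjusted p = 0.036). That call was kept without Renilla replicate 2 (adjusted p = 0.039) and was lost without each of the other 5 libraries compared (adjusted p 0.054 to 0.18).

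Zeb2 (chromosome 2, 44983632 to 45117395, minus strand), a zinc finger and homeodomain repressor, stood at 51.0, 57.5 and 56.2 FPKM with the Renilla guide and 51.3, 55.8 and 53.3 in mock. With the guides it stood at 55.7, 59.6 and 29.8 (e12.3), 60.5, 68.6 and 64.4 (e12.4), 57.9, 48.6 and 58.6 (e20.1) and 58.0, 61.6 and 32.1 (e21.1). In 8 of 12 guide libraries it was above all 3 Renilla libraries and in 3 below all of them. Its log2 difference was -0.04 with a 95% interval from -0.44 to 0.35 (adjusted p = 0.91, limma; exact two-sided permutation p = 0.879). Its sign turned when the third library of either e12.3 or e21.1 was left out (0.03 each) and without both (0.11, adjusted p = 0.33, limma). The longest annotated Zeb2 transcript has 9124 bases, and the part of transcript length in the Zeb2 levels was not tested.

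Bmi1 (chromosome 2, 18677018 to 18686629, plus strand) is the Polycomb ring finger protein that represses the Cdkn2a locus in stem cells. It stood at 47.7, 54.9 and 55.2 FPKM with the Renilla guide and 54.5, 52.4 and 54.9 in mock. Under the guides it stood at 45.1, 48.4 and 33.2 (e12.3), 46.2, 45.7 and 45.3 (e12.4), 44.4, 38.5 and 46.3 (e20.1) and 42.9, 42.8 and 25.0 (e21.1). All 12 guide libraries were below all 3 mock libraries, as for 3.41% of genes tested, and 11 of 12 below all 3 Renilla libraries. The mean with guides was 20.2% under that of Renilla, with a log2 difference of -0.34 (SE 0.14, adjusted p = 0.14, limma; exact two-sided permutation p = 0.00879). With the mock libraries added to the control it was -0.35 (adjusted p = 0.028, limma). Cdkn2a itself was not higher with the guides. It went from 58.9 FPKM with Renilla to 45.2 with guides (-0.37, adjusted p = 0.079, limma), which missed the threshold.

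Cdk6 (chromosome 5, 3341485 to 3531008, plus strand), the kinase that with D-type cyclins phosphorylates RB1, stood at 119.2, 130.4 and 127.5 FPKM with the Renilla guide and 113.9, 130.7 and 114.2 in mock. In the guide libraries it stood at 127.1, 101.6 and 97.5 (e12.3), 119.1, 129.6 and 116.7 (e12.4), 119.4, 63.4 and 111.4 (e20.1) and 120.4, 106.4 and 78.8 (e21.1). The lowest 3 values were those of e20.1 replicate 2, e21.1 replicate 3 and e12.3 replicate 3. In e20.1 replicate 2, where long transcripts stood low, Cdk6 was at -0.85 on the log2 scale against the others of its group. The longest annotated Cdk6 transcript has 11525 bases, and the part of transcript length in the Cdk6 levels was not tested. The log2 difference was -0.25 with a 95% interval from -0.58 to 0.08 (adjusted p = 0.36, limma; exact two-sided permutation p = 0.0615).

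Within single guides, calls among the 10 are given beside the share of all genes called. The 4 comparisons share the same 3 Renilla libraries. With e12.4, where 7.09% of genes tested were called (5.57% higher, 1.52% lower), they were Runx1 and Ikzf1 (higher) and Lyl1 (lower). With e21.1 (9.51% of genes, 7.06% higher and 2.45% lower) the only one was Runx1. With e12.3 (3.20% of genes) and e20.1 (5.68% of genes) limma called 0 of 10, and 2 of 10 had an unadjusted p under 0.05 in each, where 1541 (e12.3) and 2076 (e20.1) of the 11550 genes did. Against mock (6.84% of genes higher, 2.16% lower) Runx1 alone was called among the 10.

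The e20.1 and e21.1 guides were set against e12.3 and e12.4, grouped by the shared start of their names. Limma called 0 of the 10 and 0 of all genes tested, with 179 genes at an unadjusted p under 0.05 and none of the 10 among them. Among the 10 genes the log2 differences ran from -0.23 (Cdk6) to 0.02 (Lyl1). For Runx1 it was -0.03 with a 95% interval from -0.29 to 0.23. Between mock and Renilla limma called 0 genes, with 127 at an unadjusted p under 0.05, and the differences of the 10 ran from -0.07 (Cdk6) to 0.16 (Runx1).

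Among the guide libraries, the third of e12.3 and the third of e21.1 stood apart from the others for several of the 10. They were the 2 lowest of the 12 for Myb, Lmo2, Bmi1 and Zeb2, and the 2 highest for Myc. Over all genes tested, they were the 2 lowest for 16.2% and the 2 highest for 22.1%. Against the mean of the other 2 libraries of their groups, Zeb2 was at -0.93 (e12.3) and -0.88 (e21.1) on the log2 scale. Myb was at -0.53 and -0.87, Bmi1 at -0.48 and -0.75, and Myc at 0.67 and 0.48. Runx1 moved far less, at -0.10 and -0.20.

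**Figure D3:**
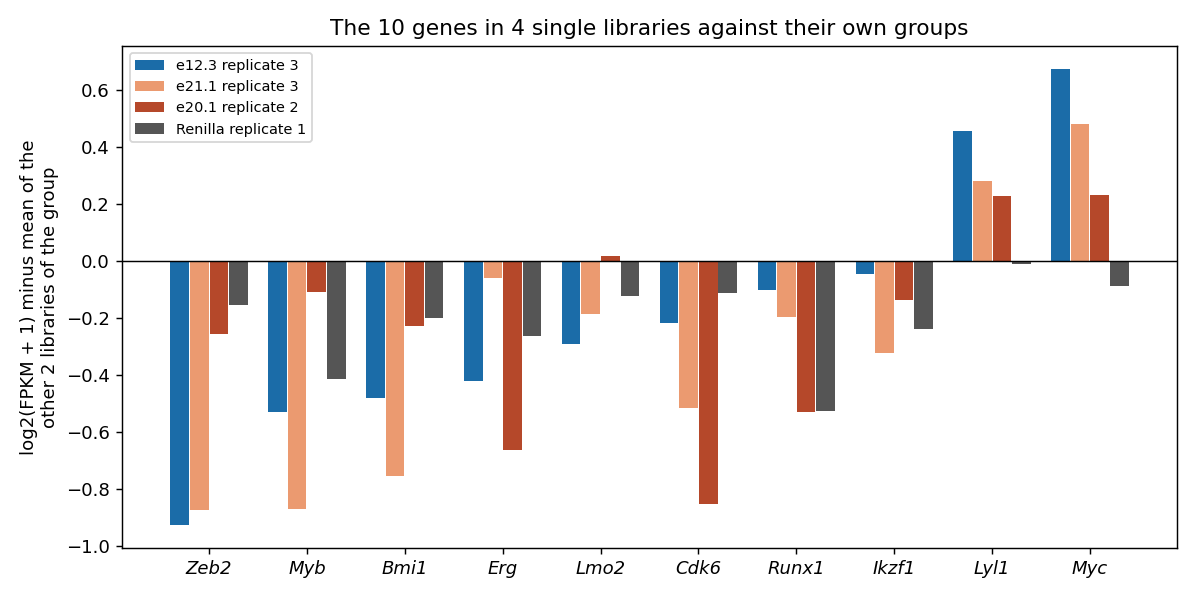
Log2(FPKM + 1) of each of the 10 genes in 4 single libraries minus the mean of the other 2 libraries of the same group (vertical axis, bars from 0). In the third libraries of e12.3 and e21.1 the bars of Zeb2, Myb and Bmi1 point down and those of Myc and Lyl1 up, while Runx1 has its longest bars, both -0.53, in e20.1 replicate 2 and Renilla replicate 1.

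In these same 2 libraries, e12.3 first and e21.1 after it, the summed level of 10 neutrophil markers was 923 and 646 FPKM, above the other 10 guide libraries (114 to 585), Renilla (108 to 191) and mock (92.9 to 121). The largest term of this sum was S100a9 (341 and 240 FPKM, guide mean 121). S100a8, Ngp, Camp, Ltf, Mmp9 and Retnlg also lay above their guide means in both libraries. Ly6g, Cxcr2 and Mmp8 (1.52 and 3.49 FPKM, guide mean 4.03) lay below theirs, so the neutrophil markers did not all move together. The summed level of 9 markers of myeloid leukaemia cells was 3583 and 2692 FPKM, against 1194 to 1749 in the other 10 guide libraries and 2723 to 3195 with Renilla. So in these 2 it stood near or above the Renilla range, and in the other 10 below it. Its largest terms were Elane (2012 and 1440 FPKM, guide mean 792) and Mpo (1025 and 664, guide mean 345). Cebpa and Hoxa9 also lay above their guide means in both libraries. Kit (24.7 and 17.7, guide mean 35.2), Itgam and Spi1 lay below theirs, and Ptprc and Meis1 differed between the libraries. The sum of 7 megakaryocyte markers was 3.33 and 3.29 FPKM, against 13.0 to 17.1 in the other 10 and 11.9 to 12.6 with Renilla. Its largest term over the guides was Itga2b, at 1.39 and 1.46 FPKM against a guide mean of 10.2. For the 4 listed mast cell and basophil markers that were found the sum was 8.03 and 8.16 FPKM, against 13.5 to 21.4 and 20.4 to 23.4. These markers did not move together. Cpa3 (0.675 and 0.572 FPKM, guide mean 7.83), Ms4a2 and Gata1 lay below their guide means, and Mcpt8 lay above (6.08 and 6.83, guide mean 3.78). The part of other cells in the levels of Zeb2, Myb, Bmi1 and Myc was not tested. In bulk RNA, fewer cells of a type and less RNA per cell cannot be told apart.

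Without these 2 libraries, left out after their values were seen, 4 of the 10 genes passed the limma test. Runx1 rose by 0.77 (adjusted p = 0.00195) and Ikzf1 by 0.29 (adjusted p = 0.025), while Lyl1 fell by 0.40 (adjusted p = 0.0026) and Bmi1 by 0.23 (adjusted p = 0.022) on the log2 scale. The 10 guide libraries left ran from 38.5 to 48.4 FPKM for Bmi1 and from 66.6 to 88.4 FPKM for Lyl1, the latter wholly below Renilla. Over all genes the number called rose from 1268 to 2085, or 18.1% of those tested.

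Marker genes also moved with the guides as a whole, where 7.77% of all genes tested rose and 3.21% fell against Renilla. Of 9 monocyte markers tested, 5 rose and 0 fell against Renilla. Among the 5 were Ctss, from 4.04 FPKM with Renilla to 51.3 with guides, and Csf1r, from 2.25 to 11.8 FPKM. Cd14 and Ccr2 were higher without a call. Ly6c2, the largest term of the list, went the other way, from 768 to 654 FPKM, and Fcgr1 from 7.51 to 6.31, neither called. The summed level of the 11 listed was 899 to 1437 FPKM with guides, 925 to 1052 with Renilla and 908 to 959 in mock, so the sums overlapped. Of 8 neutrophil markers tested 2 rose, Mmp8 from 0.278 to 4.03 FPKM and Ngp from 27.1 to 83.1 FPKM. Of the 9 markers of the labelled cell type, all detected in every library, Mpo fell by 2.09, and Ptprc and Itgam rose by 0.37 and 0.73. All 6 erythroid and all 6 endothelial markers in the table were under 1 FPKM. The part of these shifts in the changes of Runx1 and Lyl1 was not tested.

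Partner genes came from lists drawn up for each of the 10, with earlier results of these data known. The shares to set beside the counts of each list are those over all genes tested, 7.77% higher and 3.21% lower. Of 10 tested genes of the MYC and MAX network, 1 rose and 0 fell, with a median log2 difference of -0.05. The one that rose was Mxd1, a MAX partner that opposes MYC, from 3.49 FPKM with Renilla to 6.22 with guides (0.68, adjusted p = 6.5e-04, limma). Mycn and Mycl stood under 0.1 FPKM on average with Renilla, in mock and with guides. Of 22 MYC target genes of ribosome production and growth, 0 rose and 4 fell, and 21 of the 22 lay below 0, with a median of -0.30 against -0.03 over all genes. The 4 were Mybbp1a (-0.28), Rrs1 (-0.41), Ppan (-0.30) and Ncl, which encodes nucleolin (-0.39). Between mock and Renilla, without any Jmjd1c guide, the same list had a median of -0.15, with 2 of the 22 above 0 and 0 called. So most of the list lay below Renilla in mock as well. For the 4 guides against mock its median was -0.19, with 1 of the 22 above 0 and 1 called.

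For the partners of the other DNA-binding factors, few or no genes were called. Of all genes tested, 11.0% were called in either direction and 24.4% had an unadjusted p under 0.05 (limma). Of 7 MYB family members and cofactors limma called 0, with 0 at an unadjusted p under 0.05. The smallest p belonged to Crebbp (-0.25, adjusted p = 0.32) and Kmt2a (0.19, adjusted p = 0.57). Of 11 tested partners of LMO2 and LYL1 it called 0, with 1 at an unadjusted p under 0.05, the E protein gene Tcf4 (0.35, adjusted p = 0.12). Next came Cbfa2t2 (-0.14, adjusted p = 0.47). Of 3 tested RUNX relatives it called 0, and 0 at an unadjusted p under 0.05. Cbfb, the obligate partner of RUNX1, stood at 52.6 FPKM with Renilla and 48.5 with guides (-0.14, adjusted p = 0.59), and Runx2 at 43.5 and 45.7 (0.10, adjusted p = 0.75). Of 8 other ETS factors 0 were called and 1, Ets2, had an unadjusted p under 0.05 (0.24, adjusted p = 0.075), followed by Elf4 (0.17, adjusted p = 0.45).

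Of 22 Polycomb genes, 0 rose and 1 fell, Pcgf5 (-0.27, adjusted p = 0.017, limma), a paralogue of Bmi1, and the list's median was -0.02. Over all genes tested 7.77% rose and 3.21% fell. Of 12 tested genes of the Ikaros family and NuRD, 0 rose and 1 fell, Mbd3 (-0.32, adjusted p = 0.013), with a median of -0.09. Of 2 tested partners of ZEB2, the corepressor gene Ctbp2 fell (-0.25, adjusted p = 0.028).

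Of 14 tested genes of the G1 cell cycle, listed around Cdk6, 5 rose and 1 fell, where 7.77% of all genes rose and 3.21% fell, with a median log2 difference of 0.12 against -0.03 over all genes. Cdkn1a (the p21 inhibitor gene) went up from 70.5 to 132 FPKM (0.89, adjusted p = 2.5e-05, limma), and Ccnd3, a D-type cyclin gene, from 149 to 212 FPKM (0.51, adjusted p = 4.8e-05). E2f2 rose by 0.58 (adjusted p = 0.027), and Cdk4, the closest relative of Cdk6, fell by 0.33 (adjusted p = 0.028). The other 2 that rose were Rb1 (0.40) and Cdkn2d (0.45). They include genes of kinase inhibitors (Cdkn1a, Cdkn2d), of a kinase partner (Ccnd3) and of the substrate RB1.

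Among 14 tested further progenitor factors, 1 rose and 1 fell, beside 7.77% and 3.21% of all genes tested, with a median of -0.01. Hhex, a homeobox gene of early progenitors, rose from 32.5 to 45.6 FPKM (0.47, adjusted p = 0.013, limma). Msi2, an RNA-binding protein gene of stem cells, fell from 9.92 to 6.52 FPKM (-0.56, adjusted p = 0.015).

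**Figure D4:**
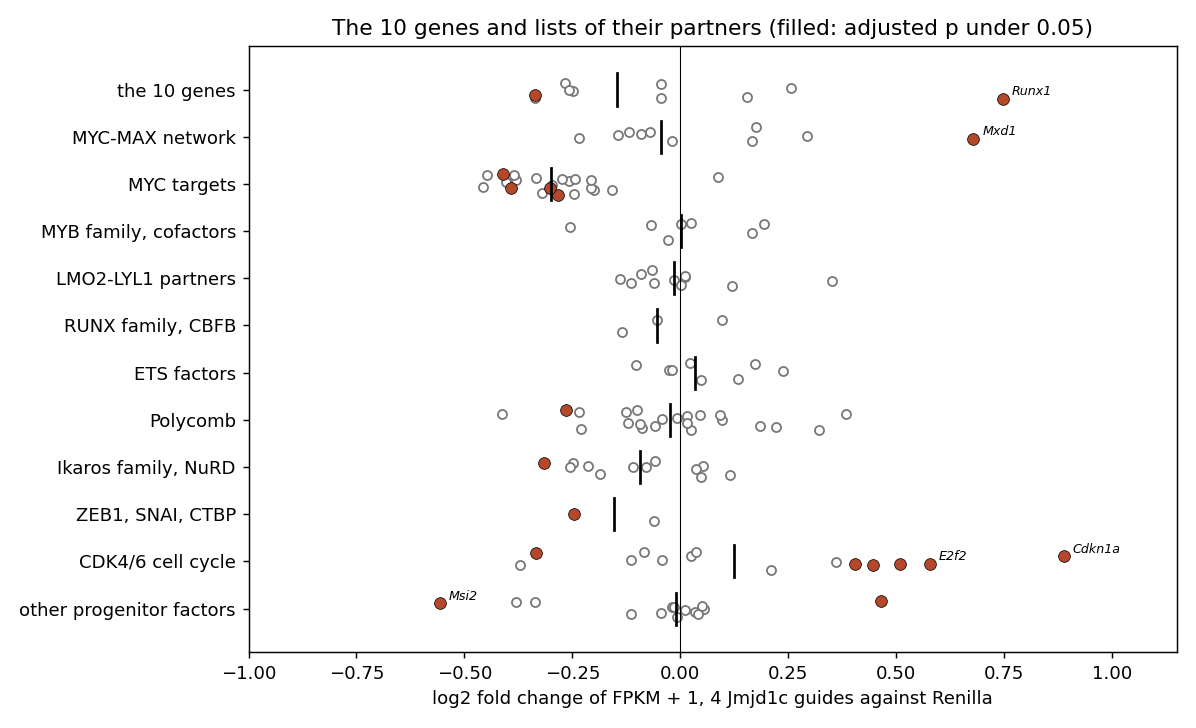
Log2 fold change of FPKM + 1 for the 4 guides against Renilla (horizontal axis), with a point for each tested gene of each list, filled and red where the adjusted p is under 0.05, and a bar at each list's median. Points are spread vertically only so that they can be seen, and called genes past 0.55 in size are named. The MYC targets lie almost all below 0 with 4 filled, and the CDK4/6 cell cycle list has 5 filled points above 0 and 1 below. Between mock and Renilla, which is not drawn, 2 of the 22 MYC targets lay above 0.

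The genes whose levels ran most alike to each of the 10 were taken by Pearson's r of log2(FPKM + 1) over the 18 libraries, among 8526 genes, as a description. The libraries share their depth, their groups and the 2 that stand apart. Closest to Runx1 were Notch2 (r = 0.933), Lrrc8d (0.927) and Cap1 (0.916). Closest to Lyl1 were Slc39a7 (0.934), Nob1 (0.930) and Matk (0.929). For Runx1 and Lyl1 these values stayed at 0.923 or above without the third e12.3 and e21.1 libraries. Closest to Myc were Soat2 (0.892), Ube2c (0.873) and Gadd45a (0.872), and their r was 0.635, 0.625 and 0.578 without these 2 libraries. The likeness to Myc thus rests largely on 2 libraries.

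Closest to Myb were Ppm1e (0.948), Cnnm4 (0.944) and Adal (0.939), to Lmo2 Frat2 (0.907), Mapkapk3 (0.906) and Dvl2 (0.896). Closest to Erg were Rere (0.903), Ucp2 (0.899) and Laptm5 (0.893), to Ikzf1 Bcl2l11 (0.914), Acap3 (0.913) and Atp2a3 (0.905). Bmi1 ran most like Noc3l (0.952), Fbxo30 (0.947) and Cdyl2 (0.940), while genes close to Cdk6 included Chd7 (0.946) and Ankrd52 (0.942). Genes close to Zeb2 included Hipk2 (0.958) and Sgk3 (0.948). Without the 2 libraries that stand apart, the value for Sgk3 with Zeb2 was 0.608, while the others of this paragraph stayed at 0.765 or above.

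By mean level over the 18 libraries, in FPKM and so per transcript length, the order of the 10 was Lmo2 (228), Myb (208), Cdk6 (113), Myc (107), Lyl1 (84.4), Zeb2 (54.5), Ikzf1 (51.6), Bmi1 (45.7), Erg (35.0) and Runx1 (28.7). Lmo2 ranked 469th and Runx1 4182nd from the top among the 11550 genes tested.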

How the data were processed

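The authors deposited FPKM per gene, 23899 genes by 18 libraries in 1 table. Separate tables of 15 libraries hold the same values row by row, within 3.32e-06 FPKM, with 25 gene names written differently (as dates), none among the 10, and were not used further. Per the submitters' processing notes, bcl2fastq 2.22.0.422, Salmon 0.13.0, R 3.5.3, DESeq2 1.22.1 and mm10 were used. Per the labels' protocols, RNA was taken up in TRIzol, poly(A)-selected and made into NEBNext Ultra II Directional libraries. Whether counting used strand is not given in the sources used here, so overlapping antisense genes could share reads.

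From these values, log2(FPKM + 1) was computed, and the 11550 genes that averaged 1 FPKM or more were fitted with limma 3.58.1 (trended variance, R 4.3.3) as 6 group means, without a block. The 4 guides were weighted equally, and p-values were adjusted over all 11550 genes. Single genes were also compared by exact two-sided permutation of libraries on log2(FPKM + 1) (scipy 1.17.1); 3 libraries against 3 cannot go below p = 0.1, so single guides have only the limma test. The 10 exact p-values against Renilla are given raw. Depth was estimated from the step of low values in 1473 genes with 1 transcript of at least 2000 bases. At least 81.4% of those values lay within 10% of whole reads, where an even spread gives 20%. Count tests were not used here. On simulated data, 47% of log2 changes of 0.5 and 91% of changes of 1 were recovered in the comparison of 4 guides against Renilla over 11550 genes, with 5 false calls. The simulated noise was normal, with each gene's own spread, and independent between genes and libraries. It held no libraries that stand apart and no structure shared by replicate number, so these shares may not carry over to the real libraries.

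The 10 genes and all partner and marker lists were chosen with earlier results of these data known. All 10 are named. From each other list, up to 4 called genes with the smallest p are named, or, where none is called, the 2 with the smallest p. Mycn, Mycl, Cdkn2a, further called list genes and some marker genes that were not called were named after their values were seen. For likeness, the 3 genes with the highest r are named, except some that are not reported here, searched over genes averaging 5 FPKM or more, without pseudogenes and unnamed gene models. Gene positions come from GENCODE vM21 (GRCm38), which held 98.9% of the names, and promoters from RefSeq (GRCm38.p6). Alternatives were another pseudocount, other filters, upper-quartile scaling, array weights, a replicate block, other sets of controls and leaving out libraries.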

Additional observations from a re-analysis of the deposited data

How the results depend on the processing

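The rise of Runx1 against Renilla kept its direction and its call in all 10 other settings (0.59 to 0.78) and in all 18 fits without 1 library. The Lyl1 call was lost without the filter (adjusted p = 0.076), with upper-quartile scaling (0.054) and with only the compared groups in the fit (0.071); the cause was not tested. The 1268 genes called became 4864 with array weights (2433 higher, 2431 lower, against 897 and 371), 2109 with Renilla and mock as joint control, 2085 without the third e12.3 and e21.1 libraries, and 814 to 1502 without 1 library (814 without Renilla replicate 1, 828 without Renilla replicate 2).

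The 2 calls among the 10 became 1 without the filter, with upper-quartile scaling, with only the compared groups, and without Renilla replicate 1 and e20.1 replicate 2. They became 6 with array weights, 5 with the joint control, 4 without the third e12.3 and e21.1 libraries, and 1 to 3 without 1 library. Zeb2 turned sign to 0.04 with array weights, to 0.032 and 0.028 without the third library of e12.3 or of e21.1, and to 0.11 without both, and ran from -0.096 to 0.032 without 1 library. Without the filter, mock against Renilla and e20.1 with e21.1 against e12.3 with e12.4 each gave 1 gene, and the latter gave 0 to 1 without 1 library.

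Without 1 library, the genes called for the 4 guides against mock (1040) numbered 580 to 1273 (649, 580 and 589 without mock replicates 1, 2 and 3). They numbered 491 to 638 for e12.4 (819), 400 to 519 for e20.1 (656), 779 to 1026 for e21.1 (1098) and 252 to 392 for e12.3 (370).

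Replicate numbers are shared between groups, and the sources used here do not say whether they mark pairs. Same-numbered libraries did not all deviate together (r from -0.248 to 0.763 over 45 pairs, median 0.117, against -0.0424 for other numbers). Still, for 17 of 18 libraries the closest library of another group had the same number. So a structure shared by number shows in the data, though the design does not state it. The main fit and the exact tests left it out, and their p-values treat libraries as unrelated across groups. With the replicate block, 4 of the 10 genes were called (Lmo2 at 0.029 and Ikzf1 at 0.040 in addition), e20.1 gave 989 genes and e21.1 gave 1652.

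At an estimated depth of 20.6 M reads or more, Lyl1 rested on at least 2964 reads in every library. The exact test of 12 against 3 libraries gives no p under 0.0044.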
